A study of Mus musculus with 32 samples.

Results

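The genes described here are 8 genes of the mouse kidney that androgen keeps high in the proximal tubule of males: Kap, Slc7a13, Cyp7b1, Fmo5, Chst11, Chst7, Timd2 and Mpped1. They were chosen by name from 54532 genes of the deposited table with measured values in view, and which values were used is not stated, so every difference between the sexes is given below as a description with no test. The question put to them was whether the high male level was kept or lost by Day 5 after cisplatin.

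Whole-kidney RNA was sequenced from wild-type C57bl/6 mice aged 6 to 8 weeks, 4 males and 4 females at each of Day 0, Day 2, Day 3 and Day 5, which gave 32 libraries in 8 groups. A single intraperitoneal dose of 20 mg/kg cisplatin, a platinum drug that injures the proximal tubule, was the only agent, and the study describes its Day 0 mice as healthy. The labels, however, give cisplatin as the treatment of the Day 0 females and no treatment for the Day 0 males. Each library is from a separate mouse according to the methods of the study, and libraries are named here by sex, day and replicate number.

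Circulating testosterone enters proximal tubule cells and changes transcription there, and in mice this makes the male proximal tubule differ from the female one in transporters, oxidising enzymes and secreted proteins. The straight segment of the tubule, in the outer medulla, carries much of this sex difference and is also a main site of cisplatin injury. Kap encodes the kidney androgen-regulated protein, Slc7a13 an amino acid transporter of the straight segment, Cyp7b1 the oxysterol hydroxylase that also acts on steroids, and Fmo5 a flavin-containing monooxygenase. Chst11 and Chst7 encode sulfotransferases that modify chondroitin, Timd2 encodes a cell-surface protein of the TIM family that takes up ferritin, and Mpped1 a protein with a metallophosphoesterase domain.

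All 8 genes are annotated as protein coding, and no exon of another gene overlapped theirs. In GRCm38, with coordinates as in the deposited table, Kap lies at chr6:133849851-133853762 (minus strand), Slc7a13 at chr4:19818725-19842218 (plus), Cyp7b1 at chr3:18071950-18243338 (minus) and Fmo5 at chr3:97628804-97655282 (plus). Chst11 lies at chr10:82985498-83195900 (plus), Chst7 at chrX:20059560-20097521 (plus), Timd2 at chr11:46668960-46707061 (minus) and Mpped1 at chr15:83779467-83858494 (plus).

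Promoter sequence, from 250 bases before to 50 bases after an annotated start site, came from RefSeq on GRCm38.p6 and was found for 6 of the 8 genes, in 8 windows because Timd2 and Mpped1 have a second start; Slc7a13 and Cyp7b1 were not matched. The 3 windows shown contrast the most abundant gene (Kap), the gene with the largest fall in males (Timd2, upstream start) and a gene whose male level at Day 3 was above that at Day 0 (Chst11). Capitals mark TATAAA, or TTTATA where it lies on the other strand.
Kap, chr6:133853618-133853917, minus strand: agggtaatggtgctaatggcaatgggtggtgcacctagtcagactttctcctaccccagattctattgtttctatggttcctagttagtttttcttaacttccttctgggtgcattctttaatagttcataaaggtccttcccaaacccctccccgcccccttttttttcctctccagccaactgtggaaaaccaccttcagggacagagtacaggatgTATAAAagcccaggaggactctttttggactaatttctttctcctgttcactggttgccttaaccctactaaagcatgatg
Timd2, chr11:46707055-46707354, minus strand: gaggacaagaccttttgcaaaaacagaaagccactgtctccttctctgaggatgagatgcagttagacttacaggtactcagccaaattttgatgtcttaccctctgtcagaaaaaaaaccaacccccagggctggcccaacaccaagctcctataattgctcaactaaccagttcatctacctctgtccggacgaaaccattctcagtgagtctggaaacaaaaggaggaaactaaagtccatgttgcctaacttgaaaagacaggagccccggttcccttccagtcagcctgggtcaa
Chst11, chr10:82985247-82985546, plus strand: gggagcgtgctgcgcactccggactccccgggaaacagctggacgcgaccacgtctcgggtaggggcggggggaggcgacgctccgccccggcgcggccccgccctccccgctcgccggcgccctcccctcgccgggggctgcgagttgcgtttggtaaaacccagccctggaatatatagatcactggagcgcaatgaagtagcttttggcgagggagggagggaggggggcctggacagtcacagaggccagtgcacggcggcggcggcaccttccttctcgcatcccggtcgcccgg
The Kap window holds TATAAA, which begins 31 bases before the start site, and the Fmo5 window holds TTTATA, which begins 195 bases before it. One of these spellings was present in 2 of the 8 windows and in 13.6% of all 32851 promoter windows. The 6-letter core of the androgen response element, AGAACA or TGTTCT on the other strand, was in none of the 8 windows and in 19.0% of all windows. These letters say nothing of sites outside the windows. The G and C content was 44.7% in the Kap window, 47.0% in the Timd2 window and 71.0% in the Chst11 window, beside a median of 52.7% over all windows.

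Total counts per library ran from 16502107 to 35961325, but the libraries were not alike in what the counts covered. Genes of the mitochondrial genome took 4.49% to 23.97% of counts at Days 0, 2 and 3. At Day 5 they took 42.5% in the library labelled male Day 5 replicate 1, 78.9% to 79.8% in the other 3 male libraries and 77.9% in female Day 5 replicate 2, which left 3780528 to 5340637 counts for all other genes in the 4 libraries with 77.9% or more. The other 3 Day 5 females were not alike either, with 31.6% in replicate 1, above every library of the earlier days, 22.2% in replicate 3 and 9.30% in replicate 4. Xist, which is transcribed in female cells, had 4153 counts in the library labelled male Day 5 replicate 1 and at most 260 in any other male library, and this library also held 387 counts summed over the Y-linked genes Kdm5d, Uty, Ddx3y and Eif2s3y. Scaled for depth, its Xist level was 232 CPM, within the 158 to 272 CPM of Day 5 females. Its Y-linked level was 21.7 CPM, against 66.4 to 87.8 CPM in the other Day 5 males. Those other Day 5 males held 38.6, 14.3 and 8.28 CPM of Xist, against at most 0.209 CPM in Day 2 and Day 3 males. Day 0 males held 2.71, 0.350, 0 and 13.9 CPM. Values without male Day 5 replicate 1 still include Day 5 males with Xist reads. Male Day 0 replicate 4 had 242 Xist counts, and female Day 0 replicate 1 had 221 Y-linked counts (5, 44 and 66 in replicates 2 to 4), while no Y-linked count was found in any female library of Days 2, 3 or 5. Results at Day 5 are therefore given with and without male Day 5 replicate 1, and values without the other libraries stand where they matter. Levels are counts scaled to a common library size (CPM, with TMM factors), unless the length-scaled FPKM is named.

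The 16 marker genes of the proximal tubule were all detected in every library, with a summed level of 16974 to 19639 CPM in male Day 0 libraries. On the per-length scale, the mean FPKM of male Day 0 kidneys was 50815 for Kap, 275 for Slc7a13, 81.2 for Cyp7b1, 19.9 for Chst7, 19.4 for Fmo5, 18.8 for Timd2, 7.14 for Chst11 and 1.11 for Mpped1. Chst7, Fmo5 and Timd2 were neighbours in this order whose ranges overlapped, from 7.24 to 29.0, 13.4 to 24.6 and 14.9 to 24.4 FPKM. All 8 genes passed the filter on low counts in the male comparisons. Mpped1 did not pass it in the female comparisons, where it had 0 to 20 counts per library.

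**Figure D1:**
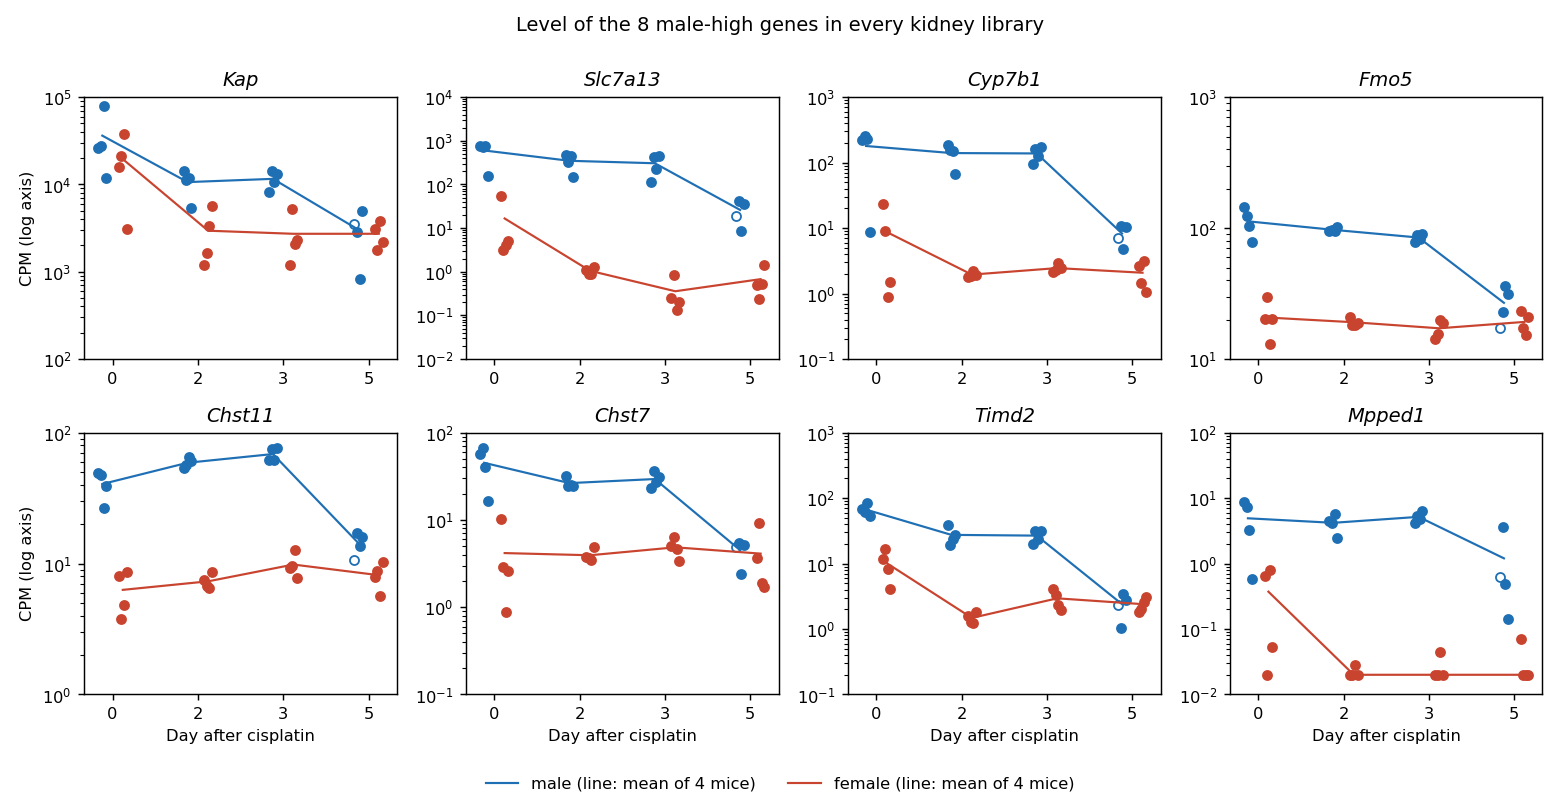
CPM of each gene (log axis) in every library by day after cisplatin, with males in blue and females in red, lines through the group means and male Day 5 replicate 1 as the open point; points at 0.02 CPM in the Mpped1 panel stand for values at or under that level. The male means lie above the female ones until Day 3 and are lowest at Day 5, when the points of Kap, Fmo5, Chst7 and Timd2 mix with those of females. The male means of Kap and Timd2 lie below Day 0 already at Day 2.

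The high male level was largely lost by Day 5: the mean male level of the 8 genes was 29.4% to 145% of Day 0 at Day 2, 32% to 170% at Day 3 and 3.60% to 35.5% at Day 5. Against Day 0 males, Day 5 males had lower Kap, Slc7a13, Cyp7b1, Fmo5, Chst7 and Timd2, that is 6 of the 8 genes, where a call needed an adjusted p below 0.05 and a log2 change beyond 1.5 (edgeR quasi-likelihood fit, p-values adjusted by the Benjamini-Hochberg procedure over all genes tested). Of all 14969 genes tested in that comparison, 3.69% were called lower and 3.83% higher. None of the 8 was called higher. Without male Day 5 replicate 1 the same 6 genes were called lower and none higher, beside 6.52% of genes called lower and 5.47% higher. The median log2 change of the 8 genes was -3.40 (-3.44 without that library), and the median over all genes was 0.04 (0.02). In whole-kidney RNA, fewer proximal tubule cells and less RNA per cell cannot be told apart.

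In males at Day 2 none of the 8 genes was called in either direction, while 0.199% of all genes were called lower and 0.517% higher. The count was also 0 in both directions for Day 3 males, beside 1.84% called lower and 1.87% called higher. At Days 2 and 3 the edgeR test called 115 and 591 of all genes in either direction, and 4654 and 6441 genes had an unadjusted p below 0.05. DESeq2 called 1 of the 8 genes lower on each of those days. The comparisons with Day 0 share the same 4 Day 0 males, so their values are set side by side and were not compared with each other.

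**Figure D2:**
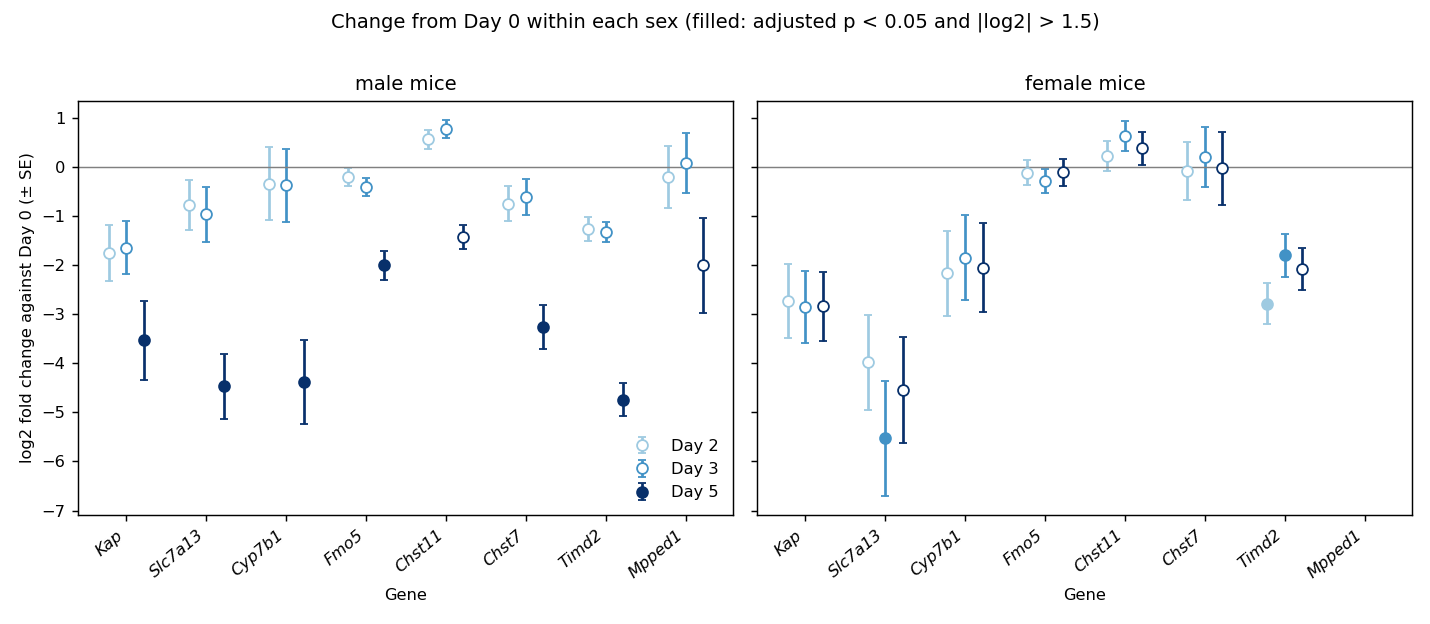
Log2 fold change of each gene against Day 0 of the same sex, with the standard error of the edgeR fit (4 mice per group), for Days 2, 3 and 5 in males (left) and females (right); filled points passed both thresholds and Mpped1 was not tested in females. In males 6 Day 5 points are filled and lie between -4.74 and -2.01, and no Day 2 or Day 3 point is filled.

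Kap is the most abundant of the genes and one of the best known targets of androgen in the kidney. Its level was 26132, 27297, 79536 and 11958 CPM in the 4 male Day 0 libraries, and 16031, 21336, 37571 and 3128 CPM in the female ones. The sexes overlapped at Day 0, with a log2 difference (male over female) of 0.88 ± 0.79 (SE), which was 0.14 without male Day 0 replicate 3, the highest library, and 1.42 without female Day 0 replicate 3. Day 5 males held 3563, 2854, 819 and 4910 CPM, all below every Day 0 male, and Day 5 females 3069, 1797, 3813 and 2213 CPM, so that males and females overlapped again. The fall in males at Day 5 was -3.54 ± 0.80 on the log2 scale (edgeR, adjusted p = 0.0184), and -3.59 ± 0.87 without male Day 5 replicate 1 (adjusted p = 0.0171). The call was lost without male Day 5 replicate 2 or replicate 3. At Day 3 the male change was -1.65 ± 0.54 with an adjusted p of 0.0548 in the same test, short of the threshold. That value was -0.90 without male Day 0 replicate 3, and Kap was called lower without male Day 0 replicate 4 (-1.94) and by DESeq2 (-1.63). In females Kap changed by -2.73, -2.86 and -2.84 at Days 2, 3 and 5, with adjusted p of 0.0664, 0.0514 and 0.137 in edgeR's test, none of which passed.

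Slc7a13 marks the straight segment and was the gene with the widest gap between the sexes. Male Day 0 libraries held 769, 728, 749 and 156 CPM, and the female ones 54.1, 3.22, 4.12 and 4.96 CPM. The low male value came from male Day 0 replicate 4 and the high female value from female Day 0 replicate 1, the libraries with 242 Xist counts and 221 Y-linked counts. At Day 5 males held 18.6, 41.4, 8.54 and 35.7 CPM, below all Day 0 males and above the Day 5 females with 0.496, 0.241, 0.515 and 1.46 CPM. The male change at Day 5 was -4.47 ± 0.66 (edgeR, adjusted p = 0.00633), and -4.32 ± 0.75 without male Day 5 replicate 1 (adjusted p = 0.00405). Male mean levels at Days 2, 3 and 5 were 58.0%, 50.9% and 4.34% of the Day 0 mean. In females the change was -5.53 ± 1.18 at Day 3 (edgeR, adjusted p = 0.0467) and -4.55 ± 1.09 at Day 5 (adjusted p = 0.137). The Day 5 change in males minus that in females was 0.05 ± 1.22, and the male over female difference was 5.17 ± 1.11 at Day 0 and 5.24 ± 0.62 at Day 5. These like values rest on female Day 0 replicate 1: without it the Day 0 difference was 7.18 and the female change at Day 5 was -2.56, and the Day 0 difference was 7.50 when male Day 0 replicate 4 was left out as well, a setting chosen after seeing the data. Slc7a13 thus stood well above the female level at Day 5, although its male level had fallen.

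Cyp7b1 removes oxysterols and steroid substrates by hydroxylation. Its level was 224, 257, 228 and 8.57 CPM in male Day 0 libraries and 23.6, 8.94, 0.882 and 1.51 CPM in female ones, and the low male was again male Day 0 replicate 4. Day 5 males held 7.16, 10.8, 4.84 and 10.2 CPM and Day 5 females 2.62, 1.44, 3.19 and 1.07 CPM. The 4 Day 5 males lay above all Day 5 females, while 1 Day 0 male at 8.57 CPM lay within the range of Day 5 males. The male change at Day 5 was -4.39 ± 0.85 (edgeR, adjusted p = 0.0130), and -4.29 ± 1.002 without male Day 5 replicate 1 (adjusted p = 0.0146). The mean level of males was 78.0% of Day 0 at Day 2, 77.0% at Day 3 and 4.61% at Day 5. In females the change at Day 5 was -2.05 ± 0.91 (edgeR, adjusted p = 0.311), which did not pass.

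Fmo5, an oxidising enzyme of the endoplasmic reticulum, had 146, 123, 105 and 78.0 CPM in male Day 0 libraries and 20.1, 29.6, 13.0 and 20.2 CPM in the female ones, with no overlap. Day 5 males held 17.3, 22.9, 35.9 and 31.4 CPM and Day 5 females 23.4, 17.2, 15.2 and 21.1 CPM. Replicates 1 and 2 lay inside the female range at Day 5, and replicates 3 and 4 above it. The male change was -2.01 ± 0.29 (edgeR, adjusted p = 0.00614), and -1.82 ± 0.27 without replicate 1 (adjusted p = 0.00191). Fmo5 changed in females by -0.12 at Day 2, -0.29 at Day 3 and -0.11 at Day 5, with adjusted p of 0.783, 0.439 and 0.855 in the edgeR test.

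Chst7 and Chst11 both transfer sulfate to chondroitin chains, and their courses in males were not alike. Chst7 had 57.4, 66.0, 40.4 and 16.4 CPM in male Day 0 libraries and 10.2, 2.91, 0.882 and 2.62 CPM in female ones. Day 5 males held 4.87, 5.50, 2.42 and 5.19 CPM, inside the range of the Day 5 females with 3.68, 9.14, 1.89 and 1.72 CPM. The female at 9.14 CPM was replicate 2, the library with 77.9% mitochondrial counts. The males at 4.87, 5.50 and 5.19 CPM lay above the other females, which held 1.72 to 3.68 CPM. With a mouse left out in turn the male over female difference of Chst7 at Day 5 ran from -0.044 to 0.96. The male change of Chst7 at Day 5 was -3.26 ± 0.45 (edgeR, adjusted p = 0.00493), and -3.28 ± 0.52 without male Day 5 replicate 1 (adjusted p = 0.00277). In females Chst7 changed by -0.03 ± 0.75 at Day 5 (edgeR, adjusted p = 0.985).

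Chst11 had 48.8, 47.5, 26.7 and 38.8 CPM in male Day 0 libraries, and at Day 3 it had 61.4, 74.97, 61.8 and 76.1 CPM. Every Day 3 male lay above every Day 0 male. The log2 change at Day 3 was 0.76 ± 0.19 (edgeR, adjusted p = 0.0250), below the log2 threshold of 1.5, and that at Day 2 was 0.55 ± 0.19 (adjusted p = 0.102). Day 5 males held 10.6, 17.2, 13.5 and 16.004 CPM, below all Day 0 males and above all Day 5 females with 7.82, 8.78, 5.69 and 10.3 CPM. The Day 5 change was -1.43 ± 0.24 with an adjusted p of 0.00924 in edgeR's test, which passed on p and missed the fold threshold, and without male Day 5 replicate 1 it was -1.29 ± 0.24 (adjusted p = 0.00576). In females the change at Day 5 was 0.37 ± 0.34 (edgeR, adjusted p = 0.604).

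Timd2 had the largest fall of the 8 genes in Day 5 males. Its level was 69.2, 60.2, 83.7 and 53.2 CPM in male Day 0 libraries, 39.3, 18.9, 23.6 and 27.7 CPM at Day 2, and 2.35, 1.04, 3.38 and 2.81 CPM at Day 5. The 3 groups did not overlap. The male change was -1.27 ± 0.24 at Day 2 (edgeR, adjusted p = 0.0397), -1.32 ± 0.20 at Day 3 (adjusted p = 0.00749) and -4.74 ± 0.34 at Day 5 (adjusted p = 0.000896), and only the last passed the fold threshold. Without male Day 5 replicate 1 the Day 5 change was -4.71 ± 0.39 (edgeR, adjusted p = 0.000401). Female Day 0 libraries held 11.9, 16.5, 8.28 and 4.05 CPM, and female Day 2 libraries 1.60, 1.29, 1.21 and 1.81 CPM, again without overlap. The female change was -2.79 ± 0.42 at Day 2 (edgeR, adjusted p = 0.0162), -1.80 ± 0.44 at Day 3 (adjusted p = 0.0489) and -2.08 ± 0.44 at Day 5 (adjusted p = 0.0967). At Day 5 the female libraries, with 1.81, 2.05, 2.61 and 3.13 CPM, overlapped the male ones, which held as few as 7 counts.

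Mpped1 was near the limit of detection in females. It had 158, 144, 90 and 10 counts in Day 0 males, against 20, 0, 16 and 2 counts in Day 0 females. Males kept 67 to 151 counts at Day 2 and 99 to 164 at Day 3, when females held 0 to 2. Day 5 males held 11, 24, 3 and 1 counts, or 0.615, 3.57, 0.484 and 0.140 CPM, and Day 5 females 2, 0, 0 and 0 counts. A count of 0 allows up to 3 counts, so the male and female levels at Day 5 are compared only as listed: every male had a higher CPM than every female, on counts that reached 1 and 2. The male change at Day 5 was -2.01 ± 0.97 (edgeR, adjusted p = 0.165), and without replicate 1 it was -1.73 ± 1.08 (adjusted p = 0.269). The value rests on replicate 2, which held 24 counts, and without it the change was -3.41, also not called. A fall was not shown with these mice, whose counts were few and uneven.

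In females 1 of the 7 genes tested was called lower at Day 2 (Timd2), 2 at Day 3 (Slc7a13 and Timd2) and 0 at Day 5, and none was called higher. At Day 2, 0.883% of all genes were called lower and 0.532% higher, at Day 3 the shares were 1.97% and 0.51%, and at Day 5 they were 0.0615% and 0.166%. At Day 5 edgeR called 37 genes in all, 2548 had an unadjusted p below 0.05, and DESeq2 called 2 of the 7 genes lower. Leaving out any single mouse of the Day 3 comparison except female Day 0 replicate 4 ended both Day 3 calls. The Day 2 call was lost without female Day 0 replicate 1 or 2 or without female Day 2 replicate 1, 2 or 3. The female Day 0 group was uneven. The 5 hepatocyte genes summed to 51.4 to 9668 CPM in Day 0 females, with a median of 241 CPM. In Day 0 males they summed to 78.9 to 303 CPM. The part of this signal in the female changes was not tested. The level of Slc7a13, Cyp7b1 and Chst7 was highest in female Day 0 replicate 1. Without that mouse the female change of Slc7a13 at Days 2, 3 and 5 went from -3.98, -5.53 and -4.55 to -1.94, -3.49 and -2.56. That of Cyp7b1 went from -2.17, -1.85 and -2.05 to -0.94, -0.63 and -0.87. For Chst7 the values went from -0.09, 0.20 and -0.03 to 0.89, 1.17 and 0.92, and none of these changes of the 3 genes was called without that mouse.

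All 4 males lay above all 4 females for 5 of the 8 genes at Day 0, where 3.43% of all genes showed the same order. The 3 exceptions were Kap, Cyp7b1 and Mpped1, and without male Day 0 replicate 4 the count was 7. At Day 2 the count was 7 of 8 (all but Kap), beside 5.27% of all genes, and at Day 3 it was 8 of 8, beside 14.8%. At Day 5 it was 4 of 8 by the listed values, namely Slc7a13, Cyp7b1, Chst11 and Mpped1, beside 4.13% of all genes. The order of Mpped1 is not established, since 1 male had 1 count and a female count of 0 allows up to 3, which leaves 3 genes. Without male Day 5 replicate 1 the same 4 genes kept this order, beside 11% of all genes. Because the genes may have been selected on high male values, these shares are printed only as the background.

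**Figure D3:**
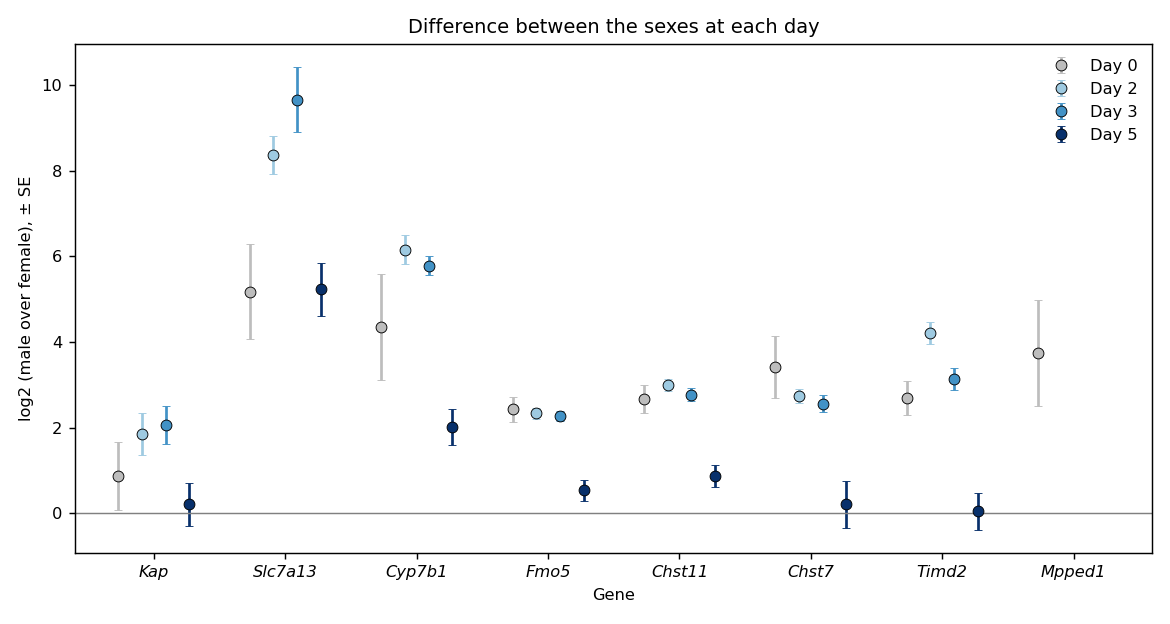
Log2 difference of males over females for each gene at Days 0, 2, 3 and 5, with the standard error of the fit (4 mice of each sex); Mpped1 is drawn at Day 0 only because its female counts were at most 2 later. At Day 5 the difference was between 0.05 and 0.54 for Timd2, Chst7, Kap and Fmo5, and 5.24 for Slc7a13. That of Chst7 ran from -0.044 to 0.96 with a mouse left out in turn.

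The difference between the sexes at Day 3 was 2.06 ± 0.44 for Kap, 9.66 ± 0.76 for Slc7a13, 5.78 ± 0.22 for Cyp7b1, 2.27 ± 0.11 for Fmo5, 2.77 ± 0.15 for Chst11, 2.56 ± 0.20 for Chst7 and 3.15 ± 0.26 for Timd2, in log2 units with SE. At Day 5 it was 0.21 ± 0.51 for Kap, 5.24 ± 0.62 for Slc7a13, 2.01 ± 0.42 for Cyp7b1, 0.54 ± 0.25 for Fmo5, 0.87 ± 0.25 for Chst11, 0.21 ± 0.55 for Chst7 and 0.05 ± 0.43 for Timd2. Without male Day 5 replicate 1 the Day 5 values were 0.19, 5.42, 2.14, 0.76, 1.06, 0.24 and 0.12 in the same order. With a mouse left out in turn the Day 5 value of Chst7 reached 0.96. The change from Day 0 to Day 5 in males minus that in females was -3.19 ± 0.94 for Chst7, -2.68 ± 0.53 for Timd2, -2.36 ± 1.29 for Cyp7b1, -1.91 ± 0.39 for Fmo5, -1.82 ± 0.41 for Chst11, -0.70 ± 1.01 for Kap and 0.05 ± 1.22 for Slc7a13. No value is given for Mpped1, whose female counts at Day 5 were at most 2. The values for Slc7a13, Cyp7b1 and Chst7 rest on female Day 0 replicate 1, without which the female Day 5 changes were -2.56, -0.87 and 0.92 as given above. None of these values carries a test.

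The Day 5 males did not all lose other proximal tubule RNA to the same extent, although the 8 genes were low in all of them. Relative to the mean of Day 0 males, the median log2 ratio of the 8 genes was -3.28 in male Day 5 replicate 1, -3.35 in replicate 2, -4.25 in replicate 3 and -3.59 in replicate 4. The median of the 16 proximal tubule genes was -0.49 in replicate 1, -2.76 in replicate 2, -3.69 in replicate 3 and -3.79 in replicate 4. The 6 genes of the proximal straight tubule had a median of -1.67 in replicate 1, with values from -2.94 to 0.295, and medians of -2.17, -4.16 and -2.92 in replicates 2 to 4. In replicate 1 the median of the straight tubule genes thus lay between that of the 8 genes and that of the 16 genes. In replicate 1, 7 of the 8 genes but 1 of the 16 proximal tubule genes were more than 2 log2 units below Day 0, and in the other 3 libraries these counts were 6 of 8 and 13 to 14 of 16. The 16 genes ranged from -2.45 to 1.04 in replicate 1, and their median there was below that of every Day 0 male (-0.216 to 0.095). Their summed level was 9509 CPM in replicate 1 and 2486, 1374 and 1324 CPM in replicates 2 to 4, all below the lowest Day 0 male at 16974 CPM. A low level of the 8 genes was thus measured both in the library with 4153 Xist counts, where the 16 proximal tubule genes were less reduced and the straight tubule genes had a lower median than they did, and, with both lists low, in the libraries with 78.9% to 79.8% mitochondrial counts. The part of the Xist signal and of the mitochondrial share in these levels was not tested.

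**Figure D4:**
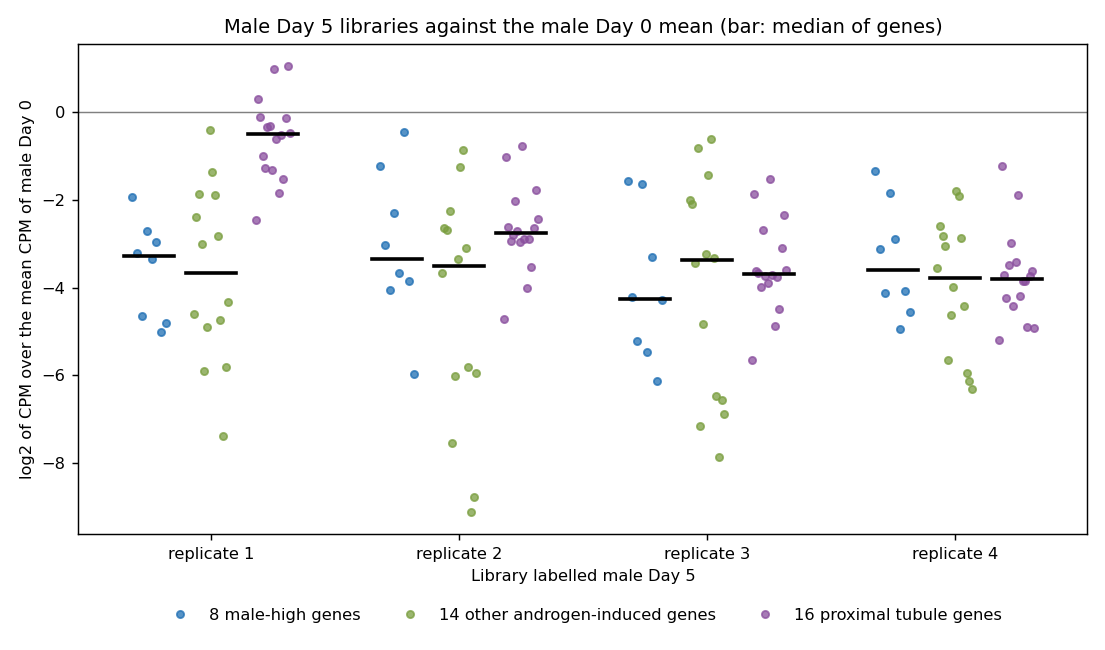
Log2 of the CPM in each library labelled male Day 5 over the mean CPM of Day 0 males, for the 8 genes, 14 other androgen-induced kidney genes and 16 proximal tubule genes; each point is a gene and bars are medians. In replicate 1 the proximal tubule genes have a median of -0.49 and the 8 genes of -3.28, and in the other 3 libraries the medians of all 3 lists lie between -4.25 and -2.76.

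As lists, 6 of 16 proximal tubule genes were called lower in Day 5 males and none higher, with a median log2 change of -1.94, and without replicate 1 the count was 14 and the median -3.28. The deepest falls were Acsm2, an acyl-CoA synthetase, at -3.86, Slc22a6, the organic anion transporter, at -3.12, and Slc34a1, the sodium-phosphate cotransporter, at -2.93 (edgeR, adjusted p = 0.0126, 0.0134 and 0.0256). Of 6 genes of the proximal straight tubule 4 were called lower (6 without replicate 1), with a median of -2.24, led by Acy3 at -3.67, Slc5a8, which carries lactate, at -3.08, and Atp11a at -2.27. Their adjusted p in edgeR's test was 0.00633, 0.0215 and 0.00856. At Day 3 the proximal tubule median was 0.07 with 0 of 16 called lower and 1 higher (Pck1, named after its value was seen, at 2.04, edgeR adjusted p = 0.0266), and that of the straight tubule was -0.17 with none of 6 called.

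Of 14 other androgen-induced kidney genes, 11 were called lower and none higher in Day 5 males, with a median of -3.01, and without replicate 1 the count was 10 and the median -3.22. The deepest falls were those of Slco1a1, an organic anion carrier, at -7.09 ± 0.66, Ugt2b37, a glucuronosyltransferase, at -6.35 ± 0.56, and Cyp2j13, a cytochrome P450, at -6.26 ± 0.46 (edgeR, adjusted p = 0.00204, 0.00204 and 0.000896). Reads of Ugt2b37 and Cyp2j13 may be shared with close paralogs, so their counts are less certain. At Day 3, 1 of these 14 genes was called lower, Odc1, the first enzyme of polyamine synthesis, at -1.54 (edgeR, adjusted p = 0.0135), a gene named after its value was seen.

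Of 8 genes listed as female-biased, 7 were tested in Day 5 males, where 3 were called higher and 2 lower, with a median of 1.34. Slc7a12, an amino acid transporter, was at 4.10, Cyp4a14 at 3.07 and Abcc3, an efflux pump, at 2.99 (edgeR, adjusted p = 0.0408, 0.0474 and 0.0338). Without replicate 1 none was called higher, their values were 1.52, 1.52 and 1.66, and the list median was -0.17. In that library Slc7a12 had 58.7 CPM, against 0.842 to 5.50 CPM in the other 3 Day 5 males and 18.6 to 40.8 CPM in Day 5 females. The genes called lower were Slc22a28 at -5.04 and Cyp2a4 at -2.69 (edgeR, adjusted p = 0.00381 and 0.0207). The Day 0 level of Slc22a28 went against the name of the list, with 70.9 to 271 CPM in males and 19.3 to 38.6 CPM in females. Cyp2a4 had 86.8 to 465 CPM in Day 0 males and 33.0 to 197 CPM in Day 0 females, which overlapped.

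Of 10 genes of androgen action tested, 3 were called lower in Day 5 males and none higher: Hsd17b2, which inactivates testosterone, at -2.84, and the steroid reductases Srd5a2 at -2.53 and Srd5a1 at -1.55 (edgeR, adjusted p = 0.0129, 0.0253 and 0.0128). The median of that list was -0.70. In females at Day 5, none of the 10 was called lower and 1 higher, Fkbp5, a cochaperone of steroid receptors, at 2.63 ± 0.34 (edgeR, adjusted p = 0.0135), named after its value was seen.

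The wider pathways of the sulfotransferases and oxidising enzymes were also counted. Of 22 tested genes that make chondroitin and heparan sulfate, 1 was called lower in Day 5 males and none higher, with a median of -0.10. It was Csgalnact1, which starts chondroitin chains, at -1.59 (edgeR, adjusted p = 0.0246), and without replicate 1 it was -1.34 and no longer called. Without replicate 1, 2 other genes of the list were called lower, Xylt1 at -1.58 and Papss2 at -1.52, and 1 higher, Chst12 at 1.59, all named after their values were seen (edgeR, adjusted p = 0.0204, 0.00595 and 0.0257). Among 8 tested flavin monooxygenases and oxysterol enzymes, the relatives of Fmo5 and Cyp7b1 in function, none was called lower, with a median of 0.26. Lcn2, a marker of tubule injury, was the only one of 6 tested injury genes called in Day 5 males, at 4.19 ± 0.95 (edgeR, adjusted p = 0.0185).

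Some markers of other cell types were called in Day 5 males. The count called higher was 3 of 4 tested adrenal cortex genes (Cyp21a1 at 4.76, Cyp11b1 at 4.68 and Star at 3.06), 1 of 7 leukocyte genes (S100a8, a neutrophil gene, at 6.04), and 0 of 5 adipocyte and 0 of 4 collecting duct genes (edgeR, adjusted p = 0.0399, 0.0422, 0.0145 and 0.00720 for the genes called). None of these 4 lists had a gene called lower, and without replicate 1 the counts called higher were 1, 2, 2 and 2 in the same order. Of 5 erythroid genes 1 was called higher, Alas2, the first enzyme of haem synthesis in red cells, at 3.19, and of 5 hepatocyte genes 1 was called lower, Ttr, the plasma carrier transthyretin, at -3.98 (edgeR, adjusted p = 0.0303 and 0.00872). No gene of the thick limb, distal convoluted tubule or endothelium lists was called. Without replicate 1, 2 erythroid genes were called higher, and Ttr was called lower at -4.83. The summed level of 5 adipocyte genes was 565 to 3224 CPM, against 291 to 1544 CPM at Day 0. For 7 leukocyte genes it was 16.2 to 110 CPM against 14.3 to 33.8 CPM, for 5 collecting duct genes 846 to 1591 CPM against 411 to 836 CPM, and for 5 adrenal cortex genes 23.6 to 118 CPM against 0.730 to 15.4 CPM. The Day 0 and Day 5 ranges of males overlapped for the adipocyte and leukocyte lists and not for the collecting duct and adrenal cortex lists. A raised adrenal cortex sum was not particular to Day 5 males. It was 7.92 to 372 CPM in Day 2 males, 19.3 to 1572 CPM in Day 3 females and 400 to 1013 CPM in Day 5 females. For the leukocyte, collecting duct and adrenal cortex lists at least 1 library had a marker at 0. The part of these cells in the changes of the 8 genes was not tested.

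Across the 16 male libraries the 8 genes moved together, with a Pearson r of 0.54 to 0.97 and a median of 0.83 over the 28 pairs of genes, on the log2 CPM scale. The libraries fall into Day 5 and earlier days and share their scaling, so this is a description. The r of each gene with the mean of all 8 was highest for Chst7 (0.987) and Slc7a13 (0.976), and lowest for Mpped1 (0.822). The genes most like the mean of the 8 were Slco3a1 (r = 0.988), Galns (0.974), Slc22a30 (0.973), Mogat1 (0.966) and Ldhd (0.964), over the same 16 libraries. Slco3a1, an organic anion transporter, had 104 to 244 CPM in Day 0 males, 31.1 to 49.2 CPM in Day 5 males and 30.5 to 62.9 CPM in Day 0 females, and in Day 5 females it had 38.4 to 53.4 CPM, which overlapped the Day 5 males. Mogat1, an acyltransferase of glyceride synthesis, had 49.2 to 152 CPM in Day 0 males, 3.87 to 15.1 CPM in Day 5 males and 11.3 to 27.8 CPM in Day 5 females.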

How the data were processed

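Kidney RNA of 32 mice was sequenced as paired reads of 150 bases, and the authors deposited 2 tables, 1 of counts per gene and 1 of FPKM values, each for every library. The submitters' notes name HTSeq and DESeq2 without version. The study's methods give GRCm38 as the genome, the notes list GRCm39 and mm39, and 98.3% of the gene positions shared with GENCODE M21 (53462 of 54409) were identical, so positions are stated on GRCm38. All sample columns were used and 0 were left out. The counts as deposited were analysed, and the deposited FPKM values, which the authors scaled by length and depth, were used to compare levels between genes and as an alternative unit.

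Groups are sex and day from the labels. The members and gene lists were chosen with earlier results of these data known. Each day was compared with Day 0 of the same sex with edgeR 4.0.16 in R 4.3.3 (filterByExpr on the 2 groups, TMM factors, glmQLFit, Benjamini-Hochberg adjustment over all genes tested). A call needed an adjusted p below 0.05 and a log2 change beyond 1.5, after the thresholds of the study. The study states no base for its log fold change, and base 2 was used here. Male over female values came from fits on both sexes at a day and carry no test. On simulated counts the script was tested before use. Named genes are the 8 members, up to 3 called genes with the largest fall and the largest rise in Day 5 males per list, and the 5 genes most correlated with the members, and others are marked as named after their values were seen. Results for some genes that this rule covers are not reported here. Alternatives were DESeq2 1.42.0 (test and size factors), limma 3.58.1 voom with sample weights, other filters, tables without mitochondrial genes, 1 fit over all groups, other fold thresholds, the replicate number as a block, and each mouse left out. No 2 libraries were identical over 496 pairs. Replicate numbers appear in every group, and the correlation of same-numbered libraries ran from -0.14 to 0.25 and was not over 0.1 in every pair of any comparison, so the numbers do not pair the mice.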

Additional observations from a re-analysis of the deposited data

Results flagged for a closer look

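Of 61 groups of 4 libraries tested with Dixon's ratio (3 more had at most 3 counts in every library and were not tested), 7 had a library far from the other 3, and chance alone flags about 1 in 20 groups. Slc7a13 was at 156 CPM in male Day 0 replicate 4, at 54.1 CPM in female Day 0 replicate 1 and at 0.848 CPM in female Day 3 replicate 2. Cyp7b1 was at 8.57 CPM in male Day 0 replicate 4, the same library that was low for Slc7a13. Mpped1 was at 3.57 CPM in male Day 5 replicate 2, on 24 counts. Chst7 was at 31.9 CPM in male Day 2 replicate 1 and at 4.87 CPM in female Day 2 replicate 4, both above the other 3 mice of their group. Male Day 0 replicate 4 had 242 Xist counts and female Day 0 replicate 1 had 221 Y-linked counts, each the highest of its group, and the part of these in the flagged levels was not tested. Without both libraries the mean male level of Slc7a13 at Day 0 was 183 times that of females, against 36.2 times with all mice.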

How the results depend on the processing

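In Day 5 males the count of 6 genes called lower stayed between 4 and 7 under every alternative, and it was 5 to 7 with each mouse left out in turn. With the replicate block it was 4, because Kap (-3.30) and Cyp7b1 (-4.01) were no longer called. Over all alternatives, all genes called numbered 507 to 2878 there (1127 in the report), 5 to 535 in Day 2 males (115), 59 to 3901 in Day 3 males (591), 21 to 1771 in Day 2 females (234), 0 to 1972 in Day 3 females (424) and 8 to 687 in Day 5 females (37). For Day 2 and Day 3 males the count of 0 lower became 1 with DESeq2, with a log2 fold threshold of 1 and with adjusted p only, and 0 to 1 with a mouse left out (1 without male Day 0 replicate 4). At Day 3 the count of 0 higher became 1 with adjusted p only (Chst11).

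The female counts depended on the settings. At Day 2 the count of 1 lower became 4 with DESeq2, 2 with no filter, 3 with at least 10 counts in every library, 5 in 1 fit over all 8 groups, 3 with voom weights, and 0 to 4 with a mouse left out. At Day 3 the count of 2 became 1 with DESeq2 size factors, 1 with no filter, 1 without mitochondrial genes, 4 in 1 fit over all groups, 4 with voom weights, 0 with the replicate block, and 0 to 3 with a mouse left out. At Day 5 the count of 0 became 2 with DESeq2, with no filter and with voom weights, 3 in 1 fit over all groups, and 0 to 3 with a mouse left out (3 without female Day 0 replicate 4).

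Small changes turned sign. With the replicate block, Cyp7b1 (0.21) and Mpped1 (0.19) did so in Day 2 males and Chst7 in Day 2 (0.43) and Day 5 (0.15) females, although the numbers were not found to pair the mice; with voom weights, Mpped1 in Day 3 males (-0.38) and Chst7 in Day 3 females (-0.15). Without female Day 0 replicate 1 and female Day 5 replicate 2, a setting chosen after seeing the data, Chst7 was 0.16 in Day 5 females. With a mouse left out in turn the value ran from -0.58 to 0.17 for Mpped1 in Day 2 males and from -0.29 to 0.47 in Day 3 males, from -0.27 to 0.12 for Fmo5 in Day 2 females and from -0.27 to 0.11 in Day 5 females. For Chst7 in females it ran from -0.40 to 0.89 at Day 2, from -0.12 to 1.17 at Day 3 and from -0.79 to 0.92 at Day 5. For male over female at Day 5 it ran from -0.16 to 0.29 for Timd2, from -0.13 to 0.52 for Kap and from -0.044 to 0.96 for Chst7. The causes were not tested. The block ended no other call of the 8 genes than those of Kap and Cyp7b1 in Day 5 males and of Slc7a13 and Timd2 in Day 3 females. FPKM, or counts without mitochondrial genes, left each gene's share of its Day 0 level in Day 5 males within the spread of the mice.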
